A study of Mus musculus with 12 samples.

Results

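The genes *Ttr*, *Best1*, *Mitf*, *Tyr*, *Tyrp1*, *Dct*, *Pmel*, *Mlana*, *Slc45a2* and *Oca2*, which mark pigment epithelium or melanin-making cells, were followed through mouse retina. They were taken by gene name from the 56748 genes of the table, and 10 of 10 were found, each under 1 identifier. Polyribosome-bound RNA pulled down from rods (Rod-TRAP, called rods here) and total RNA of retina (the input, called retina here) were sequenced from control and Pkm2 Rodko mice, with 3 libraries in each of 4 groups. All mice were homozygous for Ribo-Tag, an allele in which Cre puts an HA tag on a ribosomal protein, and all carried i75-Rod-Cre, which is driven by a promoter active in rods. Control mice were Pkm2 fl/+ and so carried 1 floxed allele together with Cre, and Pkm2 Rodko mice were Pkm2 fl/fl. The age is given as 2 months in the methods and as 2 weeks in the description deposited with the data, and the coat colour of the mice is not given in the sources used here. No sample of isolated pigment epithelium or choroid was among the 12 libraries.

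The retinal pigment epithelium is a sheet of pigmented cells that lies against the outer segments of rods and cones, regenerates the chromophore of the visual pigments and takes up shed outer segments. Behind it lies the choroid, a vascular layer with stroma and with melanocytes of neural crest origin, which also make melanin. Melanin is built inside melanosomes, organelles with their own scaffold, enzymes and transporters, and Mitf is the transcription factor that switches on many of the genes for them in both kinds of cell. A dissected retina carries as much or as little of these outer layers as the dissection leaves on it.

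Mitf is known to bind an E-box with the core TCATGTG, called the M-box, in the promoters of melanin genes. The windows of the 3 enzymes of melanin synthesis are shown because these genes moved together across libraries, as described below. Each runs from 250 bases before to 50 bases after a start site of RefSeq on GRCm38.p6, in the direction of the gene, with matches to the core on either strand in capitals. *Tyr* encodes tyrosinase, the rate-limiting enzyme, and its window is chr7:87493463-87493762 on the minus strand. *Tyrp1* encodes an enzyme related to tyrosinase, and its window is chr4:80833963-80834262 on the plus strand. *Dct* encodes dopachrome tautomerase, and its window is chr14:118052197-118052496 on the minus strand.
Tyr: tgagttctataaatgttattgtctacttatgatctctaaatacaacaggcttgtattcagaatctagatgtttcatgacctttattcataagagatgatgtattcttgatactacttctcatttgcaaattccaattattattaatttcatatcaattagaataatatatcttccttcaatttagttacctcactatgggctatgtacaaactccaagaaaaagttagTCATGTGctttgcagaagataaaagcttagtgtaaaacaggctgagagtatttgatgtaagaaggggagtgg
Tyrp1: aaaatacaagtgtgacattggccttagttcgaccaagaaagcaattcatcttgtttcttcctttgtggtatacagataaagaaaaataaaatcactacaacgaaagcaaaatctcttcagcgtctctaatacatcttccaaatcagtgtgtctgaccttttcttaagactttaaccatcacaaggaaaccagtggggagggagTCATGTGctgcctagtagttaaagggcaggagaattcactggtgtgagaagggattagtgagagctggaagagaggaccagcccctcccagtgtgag
Dct: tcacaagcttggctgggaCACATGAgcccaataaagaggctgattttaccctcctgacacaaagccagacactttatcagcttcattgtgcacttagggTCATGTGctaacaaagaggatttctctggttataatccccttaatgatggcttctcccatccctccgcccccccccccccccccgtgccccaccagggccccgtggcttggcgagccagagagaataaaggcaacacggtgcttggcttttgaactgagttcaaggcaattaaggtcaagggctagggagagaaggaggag
The core was found 1 time in the *Tyr* window, at position -22, and 1 time in the *Tyrp1* window, at position -47. Positions are those of the leftmost base of the match, counted from 0 at the start site. In *Dct* it was found 2 times, at position -151 in the direction of the gene and at position -232 on the opposite strand. Of 32851 RefSeq windows of this length, 3.77% held the core on either strand. The longest run common to all 3 windows was GTCATGTGCT, which contains the core and was found in 0.186% of the windows. In all, windows of 6 of 10 members were searched, 8 windows together, of which *Mitf* had 3. No window of *Ttr*, *Pmel*, *Mlana* or *Slc45a2* was searched. None of the windows of *Best1*, *Mitf* and *Oca2* held the core. The shorter E-box CATGTG, which lies inside the core, was found in the *Oca2* window at position -186, on the opposite strand, and in 14.2% of windows. The E-box CACGTG was in none of the 8 windows and in 7.15% of windows. The authors' reads were placed on another build (GRCm39 in the submitters' notes), so these coordinates serve only to place the sequences.

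Library totals ranged from 13458890 to 22790074 reads on genes. The deposited value of a gene is its number of reads divided by a size factor of the library, and rods and retina were scaled apart from each other. *Pkm*, which encodes both forms of pyruvate kinase M and is the gene that was floxed, had values from 51049 to 54504 in control rods and from 22246 to 23751 in Pkm2 Rodko rods. In retina it ranged from 31190 to 34234 in control and from 20107 to 21154 in Pkm2 Rodko libraries, so the genotypes did not overlap in either fraction. Summed over 9 rod genes such as *Gnat1* and *Pde6b*, rod libraries held 73775 to 80110 CPM (reads scaled to a common library total) and retina libraries 26828 to 30526. The labels do not say which libraries came from separate animals, so p-values measure only the spread between these libraries.

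In retina, the genes of the melanin pathway were strongly expressed in some libraries and weakly in others, and the difference ran within genotypes. *Dct* had values of 2303, 456 and 7618 in control retina 1, 2 and 3, and of 3355, 2647 and 625 in Pkm2 Rodko retina 1, 2 and 3. *Tyrp1* had 1145, 254 and 4232 in control retina and 1590, 1345 and 220 in Pkm2 Rodko retina. *Tyr* had 212, 45.8 and 662 in control retina and 265, 306 and 56 in Pkm2 Rodko retina. All 3 enzymes were highest in control retina 3, while control retina 2 and Pkm2 Rodko retina 3 were the lowest pair, so the genotypes overlapped.

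The other melanosome members followed the enzymes. *Pmel* encodes the protein that forms the fibrils on which melanin is laid down, and had values of 1172, 269 and 4627 in control retina and of 1744, 1591 and 233 in Pkm2 Rodko retina. *Mlana* encodes a melanosome protein that works with Pmel, and had 273, 57.6 and 962 in control retina and 409, 340 and 46.9 in Pkm2 Rodko retina. The highest library held 19.8 times the lowest for *Pmel* and 20.5 times the lowest for *Mlana*. *Slc45a2* and *Oca2* encode transport proteins of the melanosome membrane that are mutated in forms of albinism. *Slc45a2* had 33.1, 19.2 and 164 in control retina and 62.2, 54.3 and 11.4 in Pkm2 Rodko retina. *Oca2* had 90.6, 18.1 and 237 in control retina and 103, 105 and 29.7 in Pkm2 Rodko retina. In all 7 of these genes control retina 3 was the highest of the 6 libraries, and in 7 of 7 the lowest ranks were held by control retina 2 and Pkm2 Rodko retina 3.

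**Figure D1:**
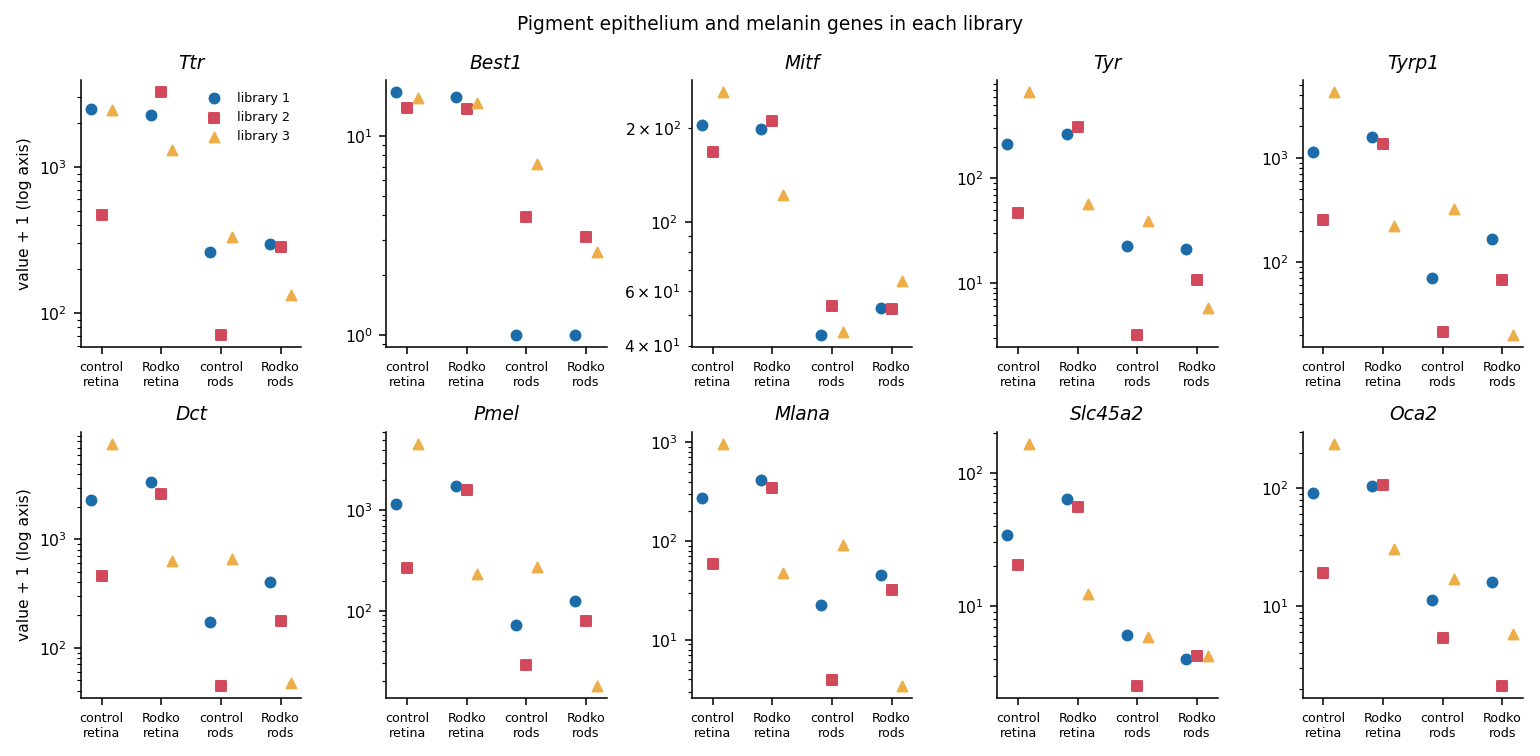
Deposited value + 1 (log axis) of each of the 10 genes in the 12 libraries, by group, with 1 point per library and its colour and shape giving the library number. Rods and retina were scaled apart, so heights compare libraries within a fraction. *Best1* in retina and *Mitf* in rods show close points, while *Dct* in control retina runs from 456 to 7618.

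*Ttr* encodes transthyretin, a carrier of thyroxine and of the retinol-binding protein, which the pigment epithelium makes in large amounts. Its values were 2515, 467 and 2465 in control retina and 2257, 3242 and 1305 in Pkm2 Rodko retina. The lowest library was again control retina 2, but the highest was Pkm2 Rodko retina 2, and control retina 3 did not stand out from control retina 1. The ratio of the summed CPM of the 7 melanin genes to that of *Ttr* was 2.08, 2.40 and 7.50 in control retina and 3.34, 1.97 and 0.937 in Pkm2 Rodko retina. Retina libraries with like amounts of *Ttr* therefore differed in melanin genes, as control retina 1 and 3 did.

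*Mitf* and *Best1* varied far less. *Mitf* had 205, 166 and 260 in control retina and 197, 211 and 121 in Pkm2 Rodko retina, with the highest and the lowest library the same as for *Pmel* but only 2.14 times apart. *Best1* encodes a chloride channel of the basolateral membrane of the pigment epithelium. It had 15.6, 12.8 and 14.6 in control retina and 14.8, 12.7 and 13.7 in Pkm2 Rodko retina, a ratio of 1.23 between highest and lowest, from 12 to 17 reads per library. At these counts *Best1* did not show the differences between libraries that *Ttr* showed.

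Per length of exon (RPKM, with lengths from GENCODE vM21), *Ttr* had the highest mean level in retina, at 98.3 ± 48.6 (SD, n = 6 libraries of both genotypes). *Pmel* followed at 40.1 ± 40.5, then *Tyrp1* at 29.6 ± 29.9, *Dct* at 27.5 ± 25.5 and *Mlana* at 18.8 ± 18.2. *Tyr* had 2.08 ± 1.83, *Mitf* 1.78 ± 0.445, *Oca2* 1.40 ± 1.14, *Slc45a2* 1.10 ± 1.08 and *Best1* 0.309 ± 0.0261. Below *Ttr*, each pair of neighbours in this order differed by less than the larger of their SDs. The SDs include differences between libraries that the melanin genes shared, so they do not show whether the order held within each library.

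The summed CPM of the 7 melanin genes ranged from 62.9 to 1064 in control retina and from 68.6 to 422 in Pkm2 Rodko retina, a range of 16.9-fold over the 6 libraries and of 6.72-fold without control retina 3. *Ttr* ranged 7.15-fold, and 2.56-fold without control retina 2. To set this spread beside that of other genes, the residual standard deviation (SD) of each gene within genotype, on the log2(value + 1) scale, was divided by the SD that limma's trend gives at its mean level. In retina this ratio exceeded 2 in 9 of 10 members, where 3.72% of all genes exceeded it, and its median was 9.82 over the members and 0.952 over all genes tested. *Dct* had a residual SD of 1.71 against a trend of 0.102, a ratio of 16.9, and *Ttr* had a ratio of 10.6. *Mitf* lay near the limit at 2.13, and *Best1* was below the trend at 0.232. In rods 6 of 10 members exceeded 2, beside 3.53% of all genes, with a median of 3.64 over the members and 0.957 over all genes. Those under 2 in rods were *Best1*, *Mitf*, *Slc45a2* and *Oca2*. These ratios are a description, and the members were chosen with the data known.

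**Figure D2:**
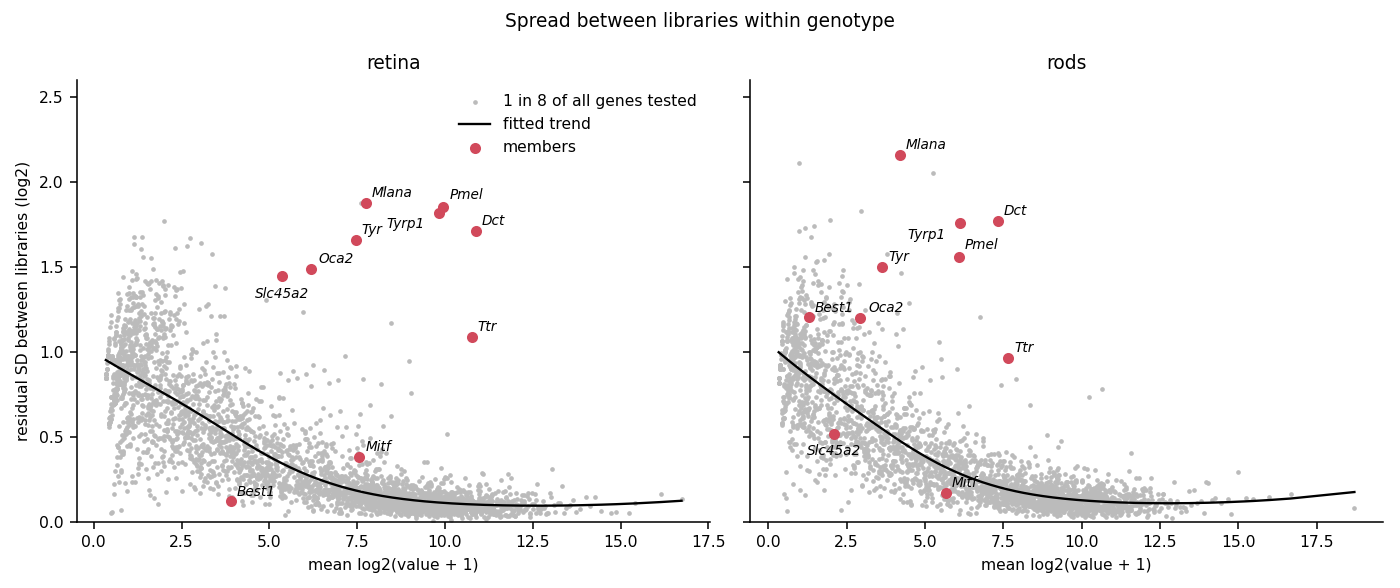
Residual SD between libraries within genotype (log2) against mean log2(value + 1) in retina and rods, for 1 in 8 of all genes tested (grey), the fitted trend (line) and the 10 genes (red). The 7 melanin genes and *Ttr* lie far above the trend in retina, and *Best1* lies below it.

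The same genes were present in rods, whose values are scaled apart from those of retina. *Dct* had 173, 43 and 657 in control rods 1, 2 and 3 and 405, 177 and 45.9 in Pkm2 Rodko rods 1, 2 and 3. *Pmel* had 71.8, 27.7 and 275 in control rods and 123, 78.2 and 16.6 in Pkm2 Rodko rods. *Tyrp1* had 69.2, 20.4 and 322 in control rods and 164, 66.5 and 19 in Pkm2 Rodko rods. Each of these genes was highest in control rods 3 and had its lowest values in control rods 2 and Pkm2 Rodko rods 3, which are the numbers that were highest and lowest in retina. *Mlana*, at 21.8, 2.9 and 90 in control rods and 44.6, 31.1 and 2.4 in Pkm2 Rodko rods, had the same highest and lowest pair. *Tyr*, at 21.8, 2.2 and 38.2 in control rods and 20.3, 9.6 and 4.8 in Pkm2 Rodko rods, did so too. Rod libraries held 3 to 73 reads of *Mlana* and 3 to 31 of *Tyr*, so the lowest ranks of both rest on few reads. *Ttr* had 263, 70 and 333 in control rods and 297, 281 and 133 in Pkm2 Rodko rods, so control rods 2 was again its lowest library.

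The remaining 4 members behaved differently in rods. *Mitf* had 42.3, 52.5 and 43.1 in control rods and 51.7, 51.5 and 63.4 in Pkm2 Rodko rods, a ratio of 1.50 between highest and lowest. Pkm2 Rodko rods 3 held the highest *Mitf* value of the rod libraries, whereas Pkm2 Rodko retina 3 held the lowest of the retina libraries. *Oca2* ranged from 1.1 to 16, from 1 to 15 reads, and *Slc45a2* from 1.5 to 5.1, from 2 to 4 reads per library. *Best1* was at 0 in control rods 1 and Pkm2 Rodko rods 1 and reached 6.2, or 5 reads, in control rods 3. At these counts differences between rod libraries in *Slc45a2* and *Best1* were not detectable.

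**Figure D3:**
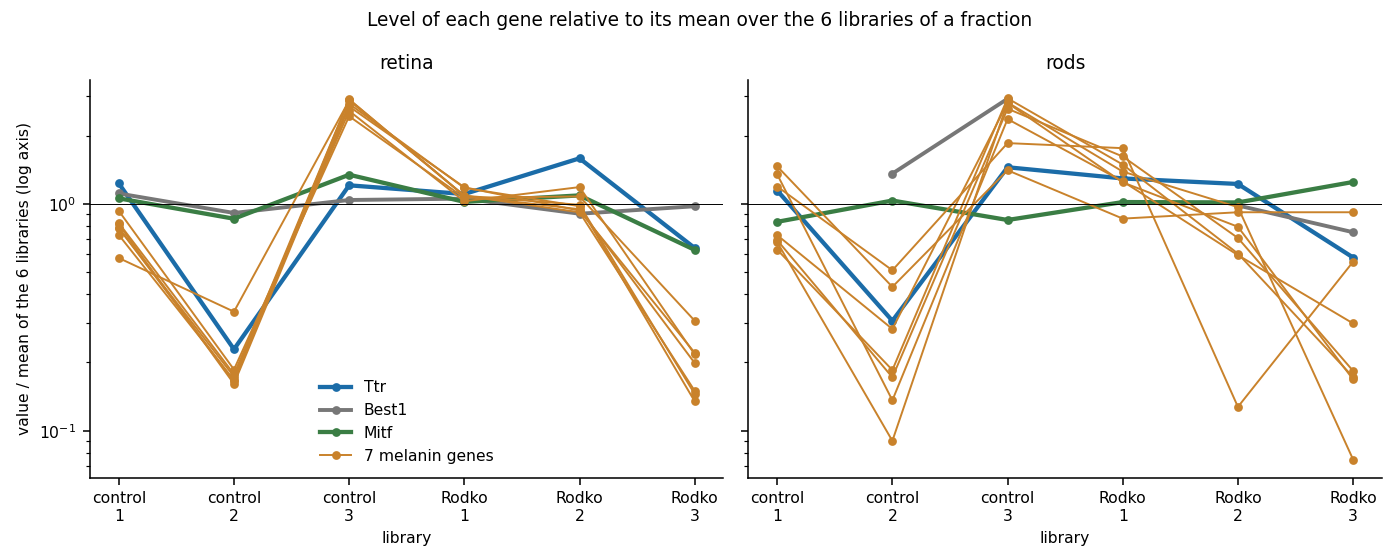
Value of each gene divided by its mean over the 6 libraries of a fraction (log axis), for each library of retina (left) and rods (right), with lines joining the points of a gene and the libraries in no order of time. The 7 melanin genes rise in control 3 and fall in control 2 and Rodko 3 in retina, with less regular lines in rods, where *Best1* at 0 in control 1 and Rodko 1 cannot be drawn.

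Libraries of rods and retina that share a genotype and a number moved together over all genes as well as in these members. Deviations from the group mean correlated at 0.224 to 0.459 in the 6 same-numbered pairs over 14155 genes. The correlation was negative in each of the other pairings within a genotype. Deviations from a group mean sum to 0 over its libraries, so these negative signs were partly fixed by the centring. Within same-numbered pairs the summed CPM of the 7 melanin genes in rods was 7.23%, 9.77% and 7.68% of that in retina for control 1, 2 and 3, and 10.6%, 5.69% and 8.02% for Pkm2 Rodko 1, 2 and 3. For *Ttr* it was 10.6%, 16.1% and 13.7% in control and 13.6%, 8.59% and 10.4% in Pkm2 Rodko pairs. This ratio of levels in rods and retina ranged 1.87-fold over the pairs both for the melanin genes and for *Ttr*. For *Mitf* it was from 16.8% to 53.1%, with a median of 25.6%. For marker genes of other retinal cells the median ratio was 9.24% for Müller glia, 9.58% for amacrine cells, 6.72% for ganglion cells, 8.34% for microglia, 24.5% for bipolar cells and 42.0% for cones. For the rod genes it was 264%. What part such cells had in the members' reads in rods was not tested.

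To ask how the members differed between rods and retina, reads of all 12 libraries were put on 1 scale by TMM, a normalization that trims extreme genes, and compared with limma. All 10 of 10 members were lower in rods, where 42.5% of all genes were lower. The log2 fold change was -3.27 for *Pmel* (SE 0.72, adjusted p = 0.000812) and -3.27 for *Tyr* (SE 0.69, adjusted p = 0.00052). It was -2.96 for *Dct*, -2.50 for *Ttr* (SE 0.44, adjusted p = 9.38e-05) and least for *Mitf*, at -1.29 (SE 0.16, adjusted p = 2.58e-06). The largest adjusted p was 0.0062, for *Mlana*. The median was -2.85 over the members and -0.39 over all genes tested. Rods here are a pulldown and retina is the input, so these fold changes compare shares of RNA and do not count cells. What lowered the share of each member was not tested.

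With genotype and number as a replicate block, which the pairing above permits, the fold changes were the same and the SE fell, to 0.08 for *Ttr*, 0.09 for *Dct* and 0.11 for *Pmel*. In control mice alone 10 of 10 members were lower in rods, where 35.5% of genes were lower. In Pkm2 Rodko mice 9 of 10 were, where 35.1% of genes were lower, and the exception was *Mlana*, with a log2 fold change of -2.90 and an adjusted p of 0.0532. In the paired fit *Mlana* was lower in Pkm2 Rodko mice too, with an adjusted p of 5.27e-09. On the TMM scale all 6 rod libraries lay below all 6 retina libraries for 3 of 10 members, *Best1*, *Mitf* and *Slc45a2*, and for 27.9% of genes. The highest rod library overlapped the lowest retina library in the others.

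**Figure D4:**
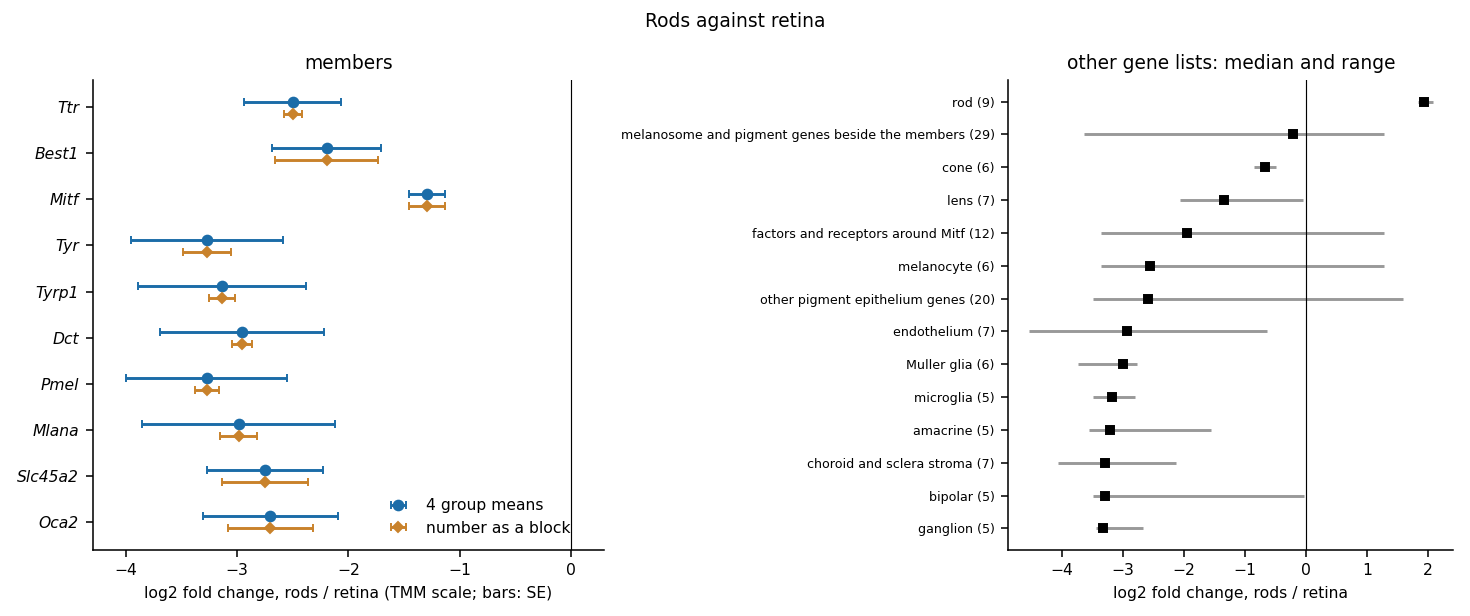
Left, log2 fold change of rods over retina for each gene (TMM scale), with bars for the SE, from 4 group means (blue) and with the library number as a block (orange). Right, median (square) and range (line) of the same fold change over the genes of other lists, with the number of genes tested in brackets. The 10 genes lie between -3.27 and -1.29, beside a median of -2.58 for other pigment epithelium genes and of 1.94 for rod genes.

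Other genes of the pigment epithelium were lower in rods as a rule. Of 20 such genes 18 were lower and 2 higher, with a median log2 fold change of -2.58. *Efemp1*, which encodes an extracellular matrix protein, was lower at -3.48 (adjusted p = 5.21e-13), *Sulf1*, a sulfatase of heparan sulfate, at -3.00 (adjusted p = 1.01e-11), and *Enpp2*, the enzyme autotaxin, at -3.28 (adjusted p = 8.18e-11). These are the lower genes with the smallest adjusted p. In retina *Efemp1* ranged from 970 to 1336 and *Sulf1* from 779 to 1236, far less than *Rpe65*, at 143 to 754. Which cells the reads of these genes came from was not tested. The 2 higher genes are also used by cells other than pigment epithelium. They were *Otx2*, a transcription factor of photoreceptors as well as of pigment epithelium, at 0.93 (adjusted p = 4.16e-10), and the keratin gene *Krt18* at 1.60 (adjusted p = 8.7e-13).

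Genes for melanosome assembly and transport beside the members were divided. Of 29 measured genes 11 were higher and 13 lower in rods, with a median of -0.22. Those lower with the smallest adjusted p were *Myo5a*, a motor that carries melanosomes, at -1.45 (adjusted p = 2.82e-11), *Cd63*, a tetraspanin of late endosomes, at -1.52 (adjusted p = 1.97e-08), and *Rab32*, a small GTPase of melanosome biogenesis, at -3.61 (adjusted p = 3.4e-07). *Bloc1s2*, a subunit of a complex for endosomal sorting that many cells use, was higher at 0.93 (adjusted p = 5.58e-08). This division rests on the scaling: with reads scaled by library totals alone 2 of the 29 were higher and 19 lower. Over all genes the share higher among those called was 39.0% with TMM and 15.5% with totals, and the all-gene median was -0.74 in place of -0.39, while the members stayed lower, 10 of 10, with a median of -3.38.

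Among 12 factors and receptors around Mitf 7 were lower and 3 higher in rods. *Pax6*, a regulator of eye development, was lower at -2.84 (adjusted p = 2.84e-12), *Kitl*, the ligand of the receptor Kit, at -3.06 (adjusted p = 7.42e-10), and *Kit* itself at -3.36 (adjusted p = 1.57e-09). *Tfe3*, a relative of Mitf that binds the same E-boxes, was higher at 0.76 (adjusted p = 5.63e-08), and *Usf1*, another E-box factor, at 0.70 (adjusted p = 1.27e-07). The third, *Mc1r*, the melanocortin receptor of melanocytes, was higher at 1.28 (adjusted p = 9.23e-06) and is in the melanosome and melanocyte lists as well. With reads scaled by library totals 2 of the 12 were higher and 8 lower, and *Usf1* no longer passed, at 0.14 (adjusted p = 0.075), while *Tfe3* was at 0.19 (adjusted p = 0.0164) and *Mc1r* at 0.72 (adjusted p = 0.00206).

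In retina, the spread between libraries was also wide in other pigment epithelium genes and in some genes of other lists. Of 20 other pigment epithelium genes 15 had a residual SD over 2 times the trend. *Rpe65*, the isomerase of the visual cycle, had 604, 143 and 542 in control retina and 557, 754 and 334 in Pkm2 Rodko retina. It was thus lowest in control retina 2 and highest in Pkm2 Rodko retina 2, as *Ttr* was. Over the 20 genes, control retina 2 was the lowest library in 16 and Pkm2 Rodko retina 2 the highest in 12, while control retina 3 was the highest in 6. *Mfrp* was one of those 6, with 504, 131 and 954 in control retina and 706, 588 and 204 in Pkm2 Rodko retina. The summed level of the 20 genes was 575 to 921 CPM in control retina and 693 to 1002 CPM in Pkm2 Rodko retina. This sum includes *Otx2*, with values of 3826 to 4492 in retina, and *Krt18*, with 673 to 771. Both varied little between libraries, so the sum varied less than genes such as *Rpe65*.

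*Gpnmb*, a relative of *Pmel*, had 1285, 290 and 4708 in control retina and 1743, 1586 and 264 in Pkm2 Rodko retina, the order of *Pmel* itself. Of 7 genes of choroid and sclera stroma, summed at 34.7 to 105 CPM in control retina and 27.3 to 60.1 CPM in Pkm2 Rodko retina, 4 had a residual SD over 2 times the trend, and control retina 3 was the highest library in 6 of 7. *Dcn*, which encodes the matrix proteoglycan decorin, had 223, 44.8 and 940 in control retina and 373, 290 and 34.3 in Pkm2 Rodko retina. *Lum*, another proteoglycan gene, was at 0 in Pkm2 Rodko retina 3. *Pdgfra*, a receptor of stromal cells, was highest in control retina 2, at 288, with 177 to 262 in the others. The 6 melanocyte genes summed to 19.3 to 33.7 CPM in control retina and 15.8 to 22.6 CPM in Pkm2 Rodko retina, and 2 of 6 had a residual SD over 2 times the trend. *Sox10*, a neural crest factor of melanocytes and glia, had 26.3, 5.3 and 71.2 in control retina and 40.1, 25.3 and 9.1 in Pkm2 Rodko retina. *Pax3*, another such factor, was at 0 in control retina 1 and 2 and in Pkm2 Rodko retina 3 and reached 8.6 in control retina 3. *Ednrb*, an endothelin receptor, ranged from 87.4 in control retina 2 to 324 in control retina 3. The remaining 3 melanocyte genes did not follow this order: *Mc1r* was highest in control retina 2, at 107 against 45.7 to 63.3 in the others, *Kit* ranged from 71.7 to 120 and *Erbb3* from 18.1 to 26.6. The part of these cell types in the members' spread was not tested. Genes over 2 times the trend in retina were also found among markers of Müller glia (4 of 6), microglia (3 of 5), bipolar cells (3 of 5), lens (4 of 7) and endothelium (3 of 7), and were 0 of 6 for cones, 0 of 5 for amacrine and 0 of 5 for ganglion cells. Of the 9 rod genes 0 exceeded 2 times the trend in either fraction, and 6 of 9 were lowest in control retina 3 among the retina libraries.

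To find the genes most like the members, each gene's log2(value + 1) profile over 6 libraries was centred and set against the mean profile of the members, over the 17531 genes averaging 10 or more in retina. The nearest were *Bace2*, a protease that cleaves Pmel, with a root-mean-square difference of 0.102 on the log2 scale, *Tspan10* at 0.174, *Islr* at 0.193, *Gpr143*, a receptor of the melanosome that is mutated in ocular albinism, at 0.213, and *Mfrp*, a membrane protein of pigment epithelium, at 0.221. *Ptgds*, *Sox10*, *Tpm2*, *Olfml1* and *Tgtp1* completed the 10 nearest. In rods, over 14195 genes, *Ptgds*, which encodes a prostaglandin D synthase, was the nearest at 0.0899, and *Mdk*, *S100b*, *Ucp2*, *Scand1*, *Rhoj*, *Angptl2*, *Cpxm2*, *B2m* and *Lrat* followed.

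Since *Ttr* and the melanin genes did not share 1 profile, each was also searched alone in retina, a choice made after their values were seen. The nearest genes to *Ttr* were *Cdh3* at 0.105, *Lrat* at 0.124, *Rpe65* at 0.151 and *Rdh5* at 0.169, the last 3 being genes of the visual cycle. The nearest to the mean of the 7 melanin genes was *Gpnmb* at 0.105. *Edn3*, a ligand of the endothelin receptor of melanocytes, followed at 0.212, and *Islr* at 0.257. Next in order came *Car13* at 0.258, *Mlph*, a melanosome linker, at 0.26, *Dkk2* at 0.263, *Matn3* at 0.304 and *Dcn* at 0.317. Between members, *Tyrp1* and *Pmel* differed by 0.0647 and *Pmel* and *Mlana* by 0.0767, while *Pmel* and *Ttr* differed by 1.01 and *Pmel* and *Mitf* by 1.22. These are likenesses of profile over 6 libraries, and all points of a profile share those libraries and their depths.

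The comparison of genotypes asked whether loss of *Pkm2* in rods moved these genes. In rods 0 of 10 members passed an adjusted p of 0.05 in limma, where 0.0194% of all genes did. The log2 fold change of Pkm2 Rodko over control ranged from -0.80 for *Oca2* (SE 0.70, adjusted p = 0.932) to 0.28 for *Ttr* (SE 0.46, adjusted p = 0.952). In retina 0 of 10 passed, where 0.00391% of all genes did. There the values ranged from -0.46 for *Slc45a2* (SE 0.70, adjusted p = 0.966) to 0.57 for *Ttr* (SE 0.50, adjusted p = 0.947). *Dct* was at -0.18 with an SE of 0.79 in retina and at -0.19 with an SE of 0.82 in rods, so both values were smaller than their error. 0 members had an unadjusted p under 0.05 in either fraction, and edgeR and DESeq2 on the reads also called 0.

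The narrowest SE among the members was that of *Mitf*, at 0.27 in rods (SE 0.23) and at -0.27 in retina (SE 0.21). The difference between these effects was 0.54 (SE 0.32, adjusted p = 0.978). For the difference of genotype effects between fractions 0 of 10 members passed in limma, where 0% of all genes did, and 0 members had an unadjusted p under 0.05. With edgeR 0 members and 0 genes passed. Libraries of the genotypes did not stand apart in any member, beside 9.89% of all genes in rods and 9.29% in retina whose libraries did not overlap. Of the genes in the lists above 0 passed in either genotype comparison.

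**Figure D5:**
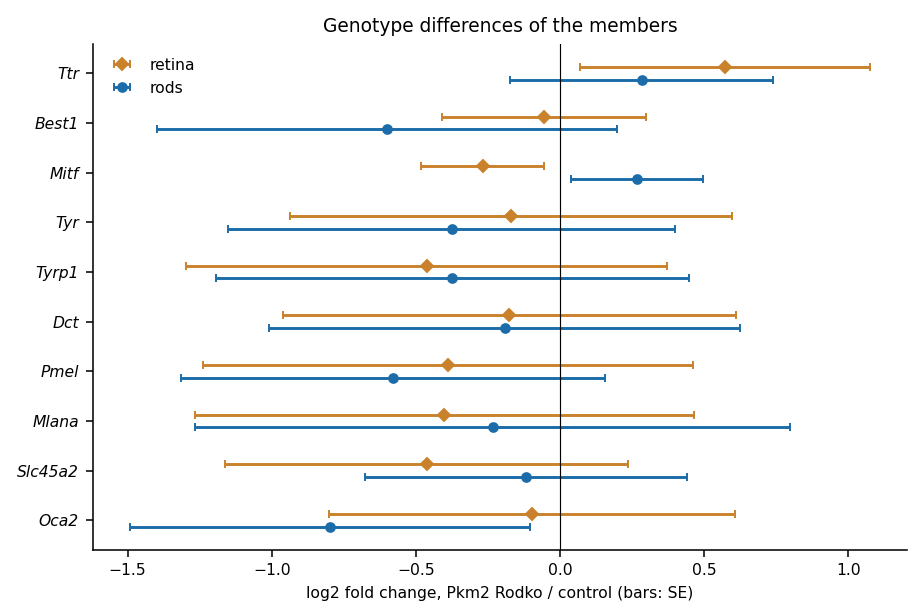
Log2 fold change of Pkm2 Rodko over control for each gene in retina (orange) and rods (blue), with bars for the SE from limma. The values lie between -0.80 and 0.57, and *Mitf* has the shortest bars in both fractions.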

How the data were processed

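Polyribosome-bound and total retinal RNA of 12 libraries, 3 in each of 4 groups named by the labels, were analysed. Per gene and library the authors deposited a signal, that is reads over a size factor, given to 1 decimal. The value of 1 read was estimated in each library from the spacing of its low values. Dividing by it gave back whole reads, within 0.1 read, for 100% of positive values, and these reads served as counts. Median-of-ratios factors computed from these reads over the 6 libraries of a fraction matched the estimated values of 1 read. The submitters' processing notes name CASAVA 1.8.2, HISAT2, DESeq2, edgeR and GRCm39 without roles. Annotation and strand setting of the counting are not given in the sources used here, so reads of overlapping or antisense genes, and forms of *Mitf*, could not be told apart.

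Totals were 13458890 to 22790074 reads, and with 3 libraries per group their number limits precision. No pair of libraries in a group agreed within sampling noise (chi-square per degree of freedom at least 7.16).

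Genotypes were compared within each fraction by limma 3.58.1 (R 4.3.3) with a variance trend on log2(value + 1), over genes that averaged 1 or more in either genotype, and two-sided p-values went through Benjamini-Hochberg adjustment, with a threshold of 0.05. A fold change on this scale understates that of low genes. Rods and retina were compared in 1 limma fit of 4 group means on the reads scaled by TMM over 12 libraries. CPM relate reads to the library total, and RPKM divide them by exon length. The test was checked on simulated data. Figures used Python 3.11.15, pandas 2.3.3, numpy 2.4.6 and matplotlib 3.10.9.

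Rods and retina libraries with the same genotype and number were taken as pairs from the numbers in the titles, since all 6 pairs correlated above 0.1 in their deviations. Numbers did not pair control with Pkm2 Rodko libraries (-0.201 to 0.0647).

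Alternatives were edgeR 4.0.16 and DESeq2 1.42.0, other scalings, filters and pseudocounts, 1 fit of 12 libraries, a replicate block and leaving out each library. The members, the 14 gene lists and the rules were chosen with earlier results of these data known. Named are the 10 members, *Pkm*, of each list at most 5 genes past the threshold with the smallest adjusted p, and the 10 genes with the profile most like the mean of the members in each fraction. *Mc1r*, *Gpnmb*, *Dcn*, *Lum*, *Pdgfra*, *Pax3*, *Erbb3*, *Ednrb*, *Rpe65*, the ranges without 1 library and the separate searches for *Ttr* and the melanin genes were chosen after their values were seen. *Asip* was on a list and is not analysed here. Lists of endothelium, lens, cone and bipolar genes held 7, 5, 6 and 4 genes lower in rods, of 7, 7, 6 and 5 tested, and those of Müller glia, amacrine, ganglion cells and microglia were lower in 6 of 6, 5 of 5, 5 of 5 and 5 of 5. The rod list was higher in 9 of 9, and 1 further gene of it is not reported here.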

Additional observations from a re-analysis of the deposited data

How the results depend on the processing

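Over every alternative the number of members called between genotypes stayed at 0 in both fractions and for their difference, while the genes called overall were 4 in rods (2 to 17 over the alternatives, 8 with the library number as a replicate block, 4 with edgeR and 7 with DESeq2) and 1 in retina (0 to 4, with 0 under the block and 1 with edgeR and with DESeq2). Members lower in rods than in retina stayed at 10 of 10 under other scalings, pseudocounts, tests, no filter, the replicate block (10, paired by genotype and number) and without any 1 library. With a filter of at least 10 reads in every library 5 were called, since that filter removed the others from the test, and the genes called overall went from 17809 to 10582. The block changed no other call of a member beside that of *Mlana* in Pkm2 Rodko mice.

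The direction of the genotype values rested on single libraries. Leaving out 1 library at a time, the log2 fold change in rods ranged from -0.40 to 0.71 for *Ttr*, -1.40 to 0.022 for *Best1*, -1.45 to 0.36 for *Tyr*, -1.31 to 0.65 for *Tyrp1*, -1.17 to 0.78 for *Dct*, -1.35 to 0.28 for *Pmel*, -1.42 to 0.93 for *Mlana* and -0.54 to 0.11 for *Slc45a2*. In retina it ranged from -0.23 to 0.98 for *Ttr*, -0.13 to 0.0035 for *Best1*, -1.17 to 0.74 for *Tyr*, -1.50 to 0.53 for *Tyrp1*, -1.24 to 0.79 for *Dct*, -1.43 to 0.62 for *Pmel*, -1.44 to 0.59 for *Mlana*, -1.09 to 0.42 for *Slc45a2* and -1.08 to 0.74 for *Oca2*. Without control retina 2 the melanin genes were at their lowest in retina, and without control retina 3, or Pkm2 Rodko retina 3 for *Mlana*, at their highest. The difference between fractions ranged from -0.96 to 0.53 for *Ttr*, -1.51 to 0.089 for *Best1*, -1.28 to 0.81 for *Tyr*, -0.89 to 1.14 for *Tyrp1*, -0.98 to 1.06 for *Dct*, -1.20 to 0.86 for *Pmel*, -1.03 to 1.37 for *Mlana*, -0.52 to 0.99 for *Slc45a2* and -1.56 to 0.24 for *Oca2*. With edgeR that difference changed sign for *Dct* (0.18), *Pmel* (0.0019) and *Oca2* (0.0901). The cause was not tested.

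The median ratio of residual to trend SD ranged without 1 library from 7.10 to 10.8 in retina, lowest without control retina 2, and from 2.71 to 4.08 in rods, lowest without control rods 2. It was 5.70 in rods with at least 10 reads in every library, where fewer members were tested. The summed CPM of the 10 members differed 12.3-fold between the highest and lowest retina libraries and 7.59-fold between rod libraries. Without *Dct* it differed 10.7-fold and 5.92-fold. Leaving out 1 library gave 5.75 to 12.3 in retina and 4.76 to 7.59 in rods, lowest without control retina 3 and without control rods 3. Counts under 10 reads limit *Best1*, *Slc45a2* and *Oca2* in rods, and *Tyr* and *Mlana* in their lowest rod libraries.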
